A study of Drosophila melanogaster with 27 samples.

Results

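Fmr1 mRNA, the transcript of the gene FBgn0028734, is the message for the RNA-binding protein that was pulled down in these experiments. It was taken by its identifier as 1 of 17807 genes listed, and it was read in all 27 libraries. Fmr1 protein carries KH domains, a fold that holds single-stranded RNA, and an RGG box, and in neurons it regulates the translation and transport of mRNAs at synapses. Its human counterpart FMRP is lost in fragile X syndrome, and FMRP of human and mouse is known to bind its own mRNA. Ythdf is a cytoplasmic protein that recognises the RNA mark N6-methyladenosine.

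The libraries came from flies of the stock w1118, here called wild type, and from flies of the stock CG6422 with the genotype Ythdf#0/#0, here called mutant, an allele whose lesion the labels do not describe. Lysates were made from pupal heads, 200 per genotype, while the labels name the tissue whole brain. Part of each lysate was kept as input, and the rest was divided between beads with the Fmr1 antibodies 5B6 and 5A11 and beads with mouse IgG, which measure unspecific capture. The labels list biological replicates 1, 2, 3, 5 and 7 of the wild type (n = 5) and 1, 2, 3 and 7 of the mutant (n = 4), each as input, Fmr1 pull-down and IgG pull-down.

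In the inputs, Ythdf mRNA stood at 61.8 ± 5.18 CPM (SD, 5 libraries) in the wild type and 33.2 ± 3.26 CPM (4 libraries) in the mutant. Reads of the gene were thus still present in the mutant, with an edgeR log2 difference of −0.90 ± 0.32 (SE, adjusted p = 0.107). CPM are counts scaled to the library's total in genes. For Ythdf they carry the TMM adjustment described below, and for the markers that follow they do not. Every marker of neurons, glia, photoreceptors, muscle, hemocytes and fat body (6 of 6 in each list) was above 1 CPM on average in the inputs of both genotypes. The photoreceptor markers summed to 13316 to 17069 CPM and the neuronal markers to 3515 to 5956 CPM, so the tissue held more than brain. Fat body markers summed to 91.1 to 166 CPM in wild-type and 213 to 281 CPM in mutant inputs, and their part in any difference of Fmr1 mRNA between genotypes was not tested. In such whole-tissue RNA, fewer cells of a type and less RNA per cell cannot be told apart.

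Counts in genes ran from 5623123 to 15459370 per input library and from 10726339 to 54195136 per Fmr1 pull-down library. The IgG libraries were shallower, at 196933 to 5879253. Fmr1 mRNA had 451 to 1258 counts in each input and 1056 to 6979 in each Fmr1 pull-down, but 13 to 411 in each IgG library, which therefore limit every comparison with IgG. The 95% Clopper-Pearson interval for the level in wild-type IgG library 1, with 13 counts, was 33.2 to 106.7 CPM, and for mutant IgG library 1, with 21 counts, 42.4 to 104.7 CPM. These intervals cover counting error alone.

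In the Ensembl annotation of the assembly BDGP6.54, Fmr1 lies on the minus strand of chromosome 3R, from 10101420 to 10110121. It has 11 annotated transcripts of 10 to 12 exons and 2266 to 4426 nt, with 3′ untranslated regions of 108 to 1812 nt and proteins of 529 to 729 residues. The counts are per gene, over exons that together cover 4904 nt, so isoforms were not resolved. No annotated gene overlapped it. The noncoding gene lncRNA:CR43459 lies 63 bp away and CAH7, which encodes a carbonic anhydrase, 2115 bp away, both on the opposite strand.

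The inputs held Fmr1 mRNA in both genotypes, and their levels overlapped. Levels below are CPM scaled with the TMM method, which adjusts library sizes so that most genes do not shift. The wild-type inputs 1, 2, 3, 5 and 7 held 81.2, 60.5, 58.2, 75.4 and 79.9 CPM. The mutant inputs 1, 2, 3 and 7 held 72.8, 74.7, 62.4 and 71.1 CPM. The wild-type libraries 2 and 3 were the lowest of all 9. The means were 71.0 ± 10.9 CPM (SD, n = 5) and 70.2 ± 5.46 CPM (n = 4), and the edgeR log2 difference of mutant minus wild type was −0.015 ± 0.12 (SE, 95% interval −0.27 to 0.24, adjusted p = 0.974), in a comparison that called 5.68% of the 11469 genes tested. Per length of exon the wild-type level was 14.5 RPKM, that is CPM per kilobase of exon, and in CPM Fmr1 stood above 78.0% of the genes tested.

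When Fmr1 protein was pulled down from wild-type heads, its own mRNA rose about 1.5-fold over IgG. The wild-type Fmr1 pull-downs 1, 2, 3, 5 and 7 held 98.1, 102.1, 93.4, 96.1 and 91.3 CPM. The IgG libraries of the same numbers held 62.4, 62.5, 63.2, 59.6 and 66.6 CPM. Every pull-down library lay above every IgG library. The IgG levels rested on 13 to 411 counts each, so their small spread does not measure their precision. The counting interval of IgG library 1, 33.2 to 106.7 CPM, took in the levels of all the pull-downs. The means were 96.2 ± 4.19 and 62.9 ± 2.49 CPM (SD, n = 5 each), and the edgeR log2 fold change was 0.61 ± 0.13 (1.52-fold, adjusted p = 0.000517). By adjusted p under 0.05, 16.4% of genes tested were called higher and 17% lower in this comparison, and 8.07% were higher without overlap between the groups. Of all genes tested, 15.4% had a higher log2 fold change than Fmr1. With DESeq2, whose scaling moved the median log2 fold change of all genes to −0.26, Fmr1 had 0.37 (adjusted p = 0.0214). Relative to the median of all genes its change was 0.63 to 0.64 under the 7 scalings and tools tried, and 0.66 to 0.76 in the mutant. A scaling moves all genes and their median nearly alike, so these ranges do not test how far the value depends on it.

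The mutant gave the same direction. The mutant Fmr1 pull-downs 1, 2, 3 and 7 held 116.5, 137.4, 116.1 and 103.0 CPM. The mutant IgG libraries of the same numbers held 68.5, 83.9, 76.7 and 67.5 CPM. The groups did not overlap, as was the case for 9.71% of genes on the higher side, and library 2 was the highest of both kinds. The means were 118.2 ± 14.2 and 74.2 ± 7.68 CPM (SD, n = 4 each), and the edgeR log2 fold change was 0.67 ± 0.14 (1.60-fold, adjusted p = 0.00112), with 10.8% of genes called higher and 9.61% lower. Of all genes tested, 12.8% had a higher log2 fold change. In a fit to the compared groups alone the log2 fold change was 0.56 (adjusted p = 0.0805).

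**Figure D1:**
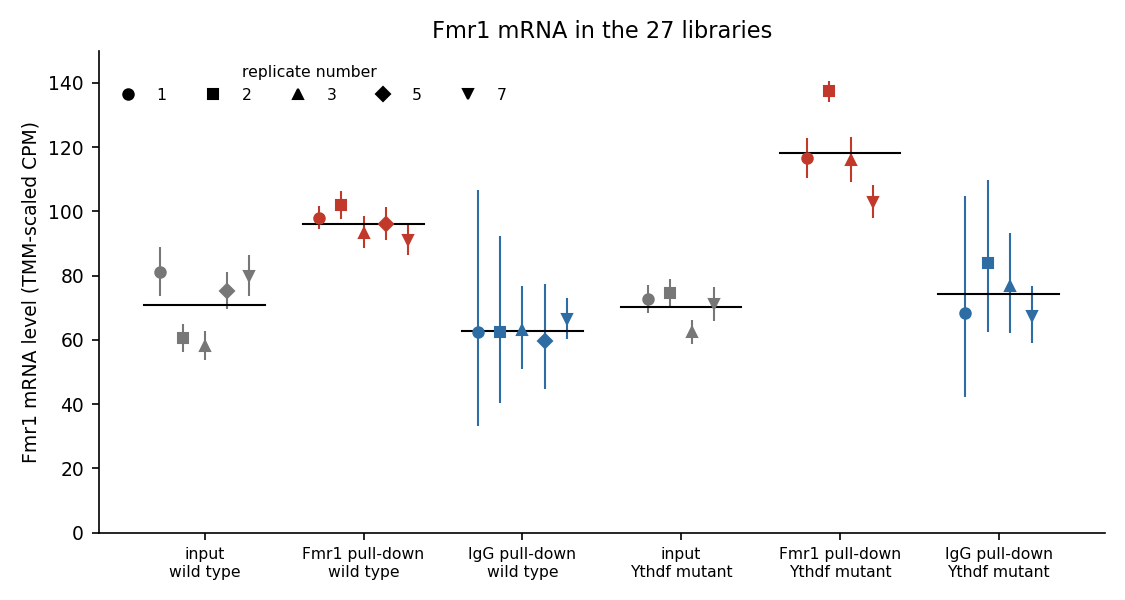
Level of Fmr1 mRNA in TMM-scaled CPM (vertical axis) in each of the 27 libraries, by group, with symbols for the replicate number, vertical bars for the 95% counting interval of each library and a horizontal line for the group mean. The Fmr1 pull-downs of both genotypes lie above their inputs and IgG libraries, and the mutant pull-downs, at 103.0 to 137.4 CPM, lie above the wild-type pull-downs.

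Over input, Fmr1 mRNA also rose in both genotypes. In the wild type the pull-downs lay above all inputs, with an edgeR log2 fold change of 0.44 ± 0.12 (1.36-fold, adjusted p = 0.0027). Of genes tested, 23.2% were called higher there and 18.9% were higher without overlap, and 28.8% had a higher log2 fold change than Fmr1. With library size alone as the scaling it was 0.29 (adjusted p = 0.0528). In the mutant the log2 fold change was 0.75 ± 0.13 (1.68-fold, adjusted p = 4.22e-05), with 21.7% of genes called higher, 20.7% higher without overlap and 15.7% above Fmr1 in log2 fold change. Comparisons over IgG and over input share their pull-down libraries.

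No difference between IgG libraries and inputs passed. The log2 fold change of IgG minus input was −0.17 ± 0.13 in the wild type (adjusted p = 0.400) and 0.077 ± 0.14 in the mutant (adjusted p = 0.870), by edgeR, where 29.3% and 11.2% of genes were called in either direction. Exact two-sided permutation tests on log2 CPM, adjusted over the 9 pairs of groups, gave 0.204 and 0.514. The same tests gave 0.0357 for the wild-type pull-down against IgG and against input and 0.0429 for the mutant, each from the smallest p the design allows (0.00794 over 252 splits of the wild-type and 0.0286 over 70 splits of the mutant libraries). They treat all libraries as independent and leave out the pairing by lysate, which is taken up next.

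The input, Fmr1 and IgG libraries of 1 number and genotype were taken as coming from 1 lysate, as the protocol describes. The log2 ratio of the Fmr1 to the IgG library was 0.65, 0.71, 0.56, 0.69 and 0.45 in wild-type lysates 1, 2, 3, 5 and 7. It was 0.76, 0.71, 0.60 and 0.61 in mutant lysates 1, 2, 3 and 7. All 9 ratios were positive and the genotypes overlapped. Their mean was 0.64 ± 0.094 (SD, n = 9). The exact sign-flip p was 0.0625 in the wild type and 0.125 in the mutant, the smallest that 5 and 4 lysates allow. Over all 9 it was 0.00391, again the smallest possible, but this takes same-numbered lysates of both genotypes as independent. With group means removed, their Fmr1 pull-downs were correlated (r from 0.311 to 0.639).

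The ratio of the Fmr1 library to input varied more, and it varied with the replicate number. In wild-type lysates 2 and 3 the log2 ratio was 0.75 and 0.68, but in lysates 1, 5 and 7 it was 0.27, 0.35 and 0.19. In mutant lysates 2 and 3 it was 0.88 and 0.89, against 0.68 and 0.53 in lysates 1 and 7. Within each genotype, numbers 2 and 3 were thus the highest.

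The IgG to input ratio shares its input library with that ratio, so a low or high input moves both together, and it was split by the same numbers. It was 0.048 and 0.12 in wild-type lysates 2 and 3 and −0.38, −0.34 and −0.26 in lysates 1, 5 and 7. In the mutant it was 0.17 and 0.30 in lysates 2 and 3 and −0.087 and −0.074 in lysates 1 and 7. It was positive in 4 of 4 lysates numbered 2 or 3 and in 0 of 5 others. The Fmr1 to IgG ratio showed no such split, with means of 0.64 ± 0.075 (SD, n = 4) and 0.63 ± 0.12 (n = 5). What distinguishes these replicate numbers is not given in the labels, and its part in these values was not tested.

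Fits to either set of numbers kept every pull-down direction, and they differed most over wild-type input. With numbers 2 and 3 alone all 4 edgeR calls held, with log2 fold changes over IgG of 0.62 in the wild type (adjusted p = 0.00935) and 0.68 in the mutant (adjusted p = 0.00487), and over input of 0.70 (adjusted p = 0.000299) and 0.89 (adjusted p = 2.07e-05). With numbers 1, 5 and 7 alone all 4 were lost. The log2 fold change over IgG was then 0.48 in the wild type (adjusted p = 0.0648) and 0.62 in the mutant (adjusted p = 0.129). Over input it was 0.25 (adjusted p = 0.25) and 0.53 (adjusted p = 0.0651).

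**Figure D2:**
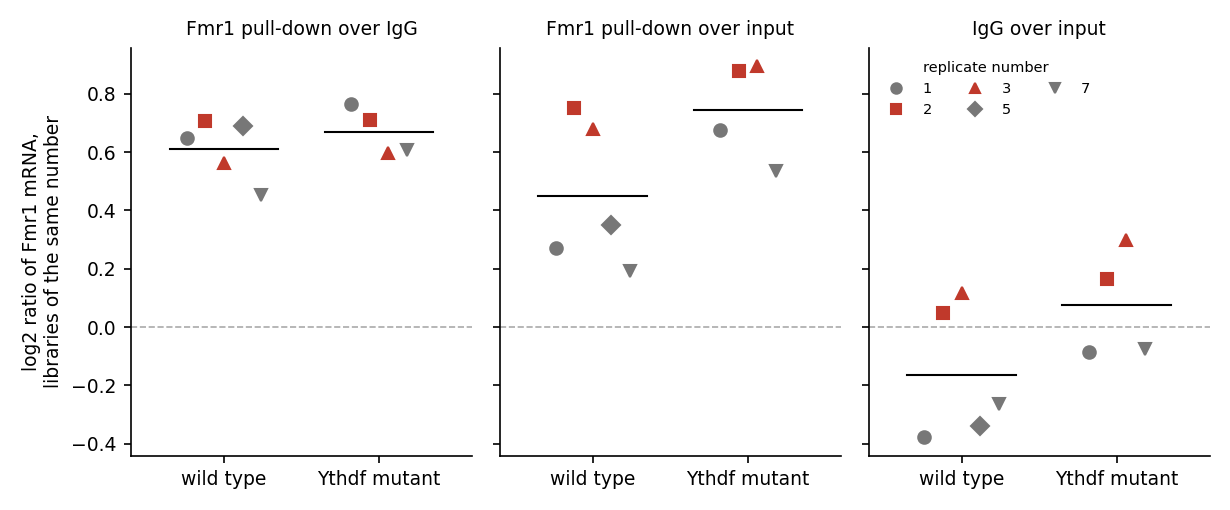
Log2 ratios of Fmr1 mRNA between libraries of the same replicate number and genotype (vertical axis), for the Fmr1 pull-down over IgG, the Fmr1 pull-down over input and IgG over input. Each point is 1 lysate, and lysates 2 and 3 stand highest in the ratios over input but not in the ratio over IgG, where all 9 lie between 0.45 and 0.76.

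To set Fmr1 against transcripts of like abundance, 675 other protein-coding genes were taken whose mean input log2 CPM was within 0.25 of that of Fmr1, 59.2 to 83.7 CPM against 70.4 CPM. Their median exonic length was 3150 nt, and Fmr1 was longer than 77.8% of them. In each library the log2 CPM of Fmr1 minus the median of these mRNAs was computed. In the wild type it was 0.31, 0.30, 0.24, 0.34 and 0.20 in Fmr1 pull-downs 1, 2, 3, 5 and 7, and it was −0.11, 0, 0.030, −0.10 and 0.057 in the IgG libraries. The pull-downs lay above all IgG libraries, and the mean difference was 0.30 (1.23-fold, exact permutation p = 0.00794, the smallest possible, adjusted over 9 pairs 0.0357). The adjusted p was 0.0714 when the comparison genes were matched on RPKM. Leaving out any 1 Fmr1 pull-down raised it to 0.0643, where the fewer splits limit the test.

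In the mutant the same quantity was 0.65, 0.78, 0.55 and 0.42 in pull-downs 1, 2, 3 and 7. In the mutant IgG libraries it was 0.070, 0.49, 0.24 and −0.0061. IgG library 2 lay above pull-down 7, so the groups overlapped. The mean difference of 0.40 did not pass (exact permutation p = 0.0571, adjusted 0.103), although it was positive in each of the 4 lysates. The set was matched to Fmr1 on the mean of the inputs of both genotypes, so there the quantity lay near 0 by construction. It was −0.023 ± 0.24 (SD, n = 5) in the wild-type and 0.011 ± 0.12 (n = 4) in the mutant inputs. The pull-down minus input was 0.30 in the wild type (exact permutation, adjusted p = 0.0357) and 0.59 in the mutant (adjusted p = 0.0643). Both comparisons have as baseline the inputs that defined the set. Matching on RPKM ended the wild-type call (0.26, adjusted p = 0.143).

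The mRNAs of like level moved as well. Their median log2 fold change over IgG was 0.26 in the wild type, beside −0.025 over all genes tested. By edgeR 214 (31.7%) were called higher and 54 (8.0%) lower, beside 16.4% and 17% of all genes. Of these 675, 134 (19.9%) had a higher log2 fold change than Fmr1. In the mutant the median was 0.21, 143 (21.2%) were called higher and 35 (5.19%) lower, beside 10.8% and 9.61% of all genes, and 90 (13.3%) exceeded Fmr1. Over input 243 (36.0%) exceeded Fmr1 in the wild type and 145 (21.5%) in the mutant. There 37.5% and 36.4% of the 675 were called higher, beside 23.2% and 21.7% of all genes. Over wild-type input Fmr1 lay between their lower quartile of −0.45 and upper quartile of 0.66. Over IgG in both genotypes and over mutant input it lay above the upper quartile. The enrichment of Fmr1 mRNA was in no comparison at the end of the range for its level.

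That range was wide. Over wild-type IgG its upper end held CG7166 (2.04 ± 0.38), sbr (1.94 ± 0.31), which encodes the mRNA export receptor, and FoxP (1.64 ± 0.38), a forkhead transcription factor expressed in the brain. Its lower end held CG15369 (−2.66 ± 0.28), RNASEK (−2.05 ± 0.40) and MFS17 (−1.98 ± 0.37), a predicted membrane transporter. These 6 were chosen as the extremes of this comparison, so their values are a description.

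**Figure D3:**
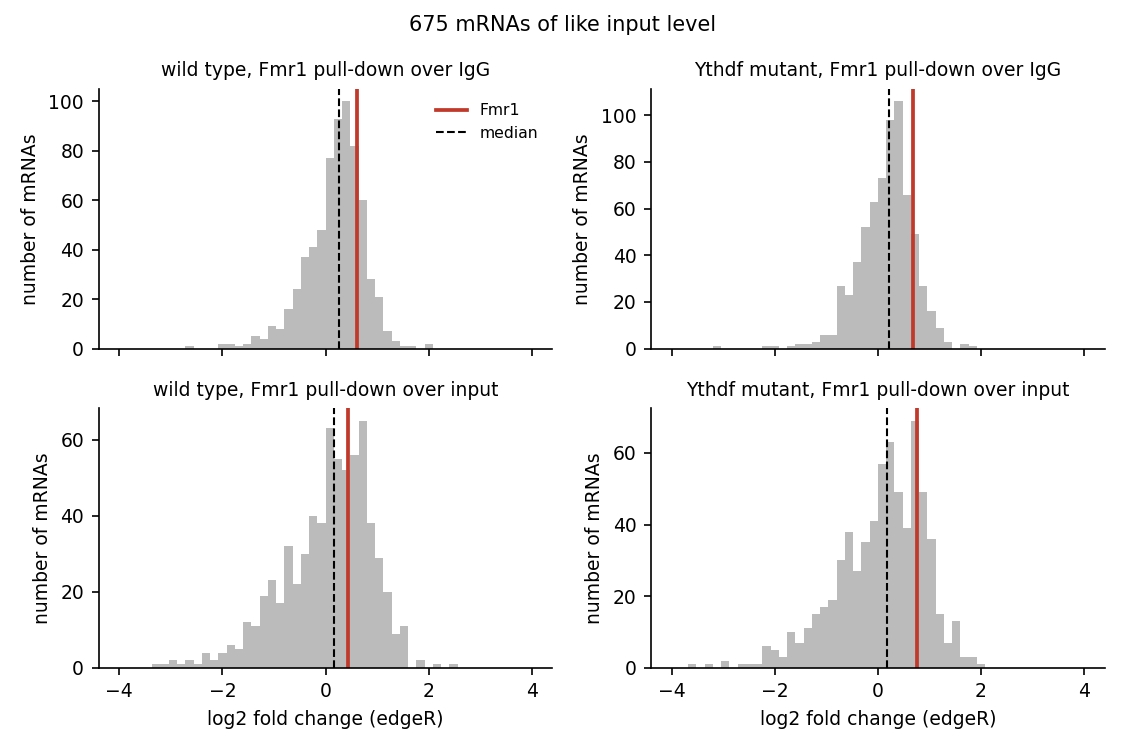
Distribution of the log2 fold change in the Fmr1 pull-down for the 675 mRNAs of like input level (bars, number of genes), over IgG and over input in each genotype, with a solid line at the value of Fmr1 and a dashed line at the median. The solid line lies above the median of the bars in each panel, and 13.3% to 36.0% of these mRNAs lie above it.

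Between genotypes, the mutant pull-downs held more Fmr1 mRNA than the wild-type pull-downs by the test on this gene alone, and not in the fit over all genes. All 4 mutant libraries, at 103.0 CPM or more, lay above all 5 wild-type libraries, at 102.1 CPM or less, as did 3.86% of genes tested. The exact permutation p was 0.0159, the smallest over 126 splits (adjusted over 9 pairs 0.0357). In edgeR the log2 difference of mutant minus wild type was 0.30 ± 0.12 (95% interval 0.046 to 0.55, 1.23-fold), and the adjusted p of 0.189 did not pass, where 2.99% of genes were called higher and 2.53% lower. Relative to the mRNAs of like level the difference was 0.32 (exact permutation p = 0.0159, adjusted 0.0476), a call that was lost when genes were matched on RPKM (0.27, adjusted p = 0.143). With any 1 library of either group left out the difference was 0.26 to 0.38, and the adjusted p of 0.0643 to 0.107 was limited by the fewer splits.

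The control pull-downs stood in the same order. All 4 mutant IgG libraries, at 67.5 to 83.9 CPM, lay above all 5 wild-type IgG libraries, at 59.6 to 66.6 CPM, as did 2.28% of genes (exact permutation p = 0.0159, adjusted 0.0357). In edgeR the log2 difference was 0.23 ± 0.14 (adjusted p = 0.449, with 2.09% of genes called higher). The counting intervals of single IgG libraries overlapped between the genotypes. By replicate number the difference of mutant minus wild type was 0.25, 0.43, 0.31 and 0.17 in the Fmr1 pull-downs 1, 2, 3 and 7 and 0.13, 0.42, 0.28 and 0.021 in the IgG libraries. It was −0.16, 0.30, 0.099 and −0.17 in the inputs, where it had no single sign.

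The enrichment itself was not shown to differ between genotypes. The edgeR interaction, the log2 fold change over IgG in the mutant minus that in the wild type, was 0.067 ± 0.19 (95% interval −0.32 to 0.45, adjusted p = 1.0). Over input it was 0.31 ± 0.17 (interval −0.045 to 0.67, adjusted p = 1.0). Among the mRNAs of like level, 230 (34.1%) had a higher interaction than Fmr1 over IgG and 43 (6.37%) over input. Over all 11469 genes edgeR called 0% over IgG, where 504 had an unadjusted edgeR p under 0.05 and DESeq2 called 5 and voom 1. Over input edgeR called 0.00872% (1 gene), where 197 had an unadjusted edgeR p under 0.05 and DESeq2 called 2 and voom 1.

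The mRNAs of 20 proteins known to work with Fmr1 in flies were taken as companions, all of which were tested. In the wild type 10 of 20 rose over IgG by edgeR, 2 fell and 8 did not pass. Of all genes 16.4% were called higher and 17% lower, and of the 675 mRNAs of like level to Fmr1 31.7% and 8.0%. The median log2 fold change of the 20 was 0.51, against −0.025 over all genes and 0.26 among the mRNAs of like level. The partners themselves were not matched for level. Of the 20, 8 had a higher log2 fold change than Fmr1. The mRNA of stau, a double-stranded RNA-binding protein of transport granules, rose most clearly (1.65 ± 0.17, adjusted p = 1.32e-07), followed by tral (1.08 ± 0.16) and Atx2 (1.06 ± 0.16), both translational regulators of ribonucleoprotein granules. Of 3 further members, singled out after their values were seen, AGO1 (0.57 ± 0.18) and Dcr-1 (0.58 ± 0.20) rose and AGO2 had 0.34 ± 0.20 (adjusted p = 0.195). None of these 3 passed in the mutant (adjusted p = 0.107, 0.804 and 0.771). Rm62 (0.83 ± 0.14) and vig (1.02 ± 0.17) rose in the wild type and also in the mutant. Both that fell encode ribosomal proteins, RpL5 and RpL11 (−1.54 ± 0.21).

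In the mutant 7 of these 20 rose over IgG, 2 fell and 11 did not pass, and 7 lay above Fmr1. Of all genes 10.8% were called higher and 9.61% lower, and of the mRNAs of like level to Fmr1 21.2% and 5.19%. The median of the 20 was 0.39, against −0.00079 over all genes and 0.21 among the mRNAs of like level. The 7 that rose were the mRNAs of Rm62, an RNA helicase (0.89 ± 0.15), vig, tral (0.82 ± 0.17), Atx2 (0.97 ± 0.18), Capr, stau and Khc, the kinesin heavy chain. RpL11 had −1.52 ± 0.23. With numbers 1, 5 and 7 alone, Rm62 (0.60, adjusted p = 0.17), Atx2 (0.89, adjusted p = 0.101) and tral (0.49, adjusted p = 0.359) lost their edgeR calls. Over mutant input 11 of the 20 rose and 3 fell, where 21.7% of all genes were called higher. Atx2 (0.40 ± 0.17, edgeR adjusted p = 0.0575) and vig (0.20 ± 0.18, adjusted p = 0.393) did not pass there. Between the pull-downs of the genotypes, Capr, the fly caprin (0.64 ± 0.15, adjusted p = 0.00822), and Tdrd3 (0.53 ± 0.15, adjusted p = 0.0332) were higher in the mutant and Ythdf was lower (−1.30 ± 0.33, adjusted p = 0.0139). Capr was higher in the mutant IgG libraries also (0.58 ± 0.17, adjusted p = 0.0488). Between the inputs the difference was 0.42 ± 0.15 for Tdrd3 (edgeR adjusted p = 0.113) and 0.19 ± 0.15 for Capr (adjusted p = 0.543). For Ythdf it was −0.90 ± 0.32 (adjusted p = 0.107). The part of these input differences in the pull-down differences was not tested.

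Among mRNAs of other KH domain proteins, 14 of 16 listed were tested, BicC and nsr having too few counts. In the wild type 3 of 14 rose over IgG, 1 fell and 10 did not pass. The share that rose was near the 16.4% of all genes called higher, beside 31.7% of the mRNAs of like level to Fmr1. The median was 0.21, against −0.025 over all genes and 0.26 among the mRNAs of like level. Of the 14, 3 lay above Fmr1. The mRNA of qkr58E-2 rose by 1.20 ± 0.18 on the log2 scale, qkr54B by 0.78 ± 0.28 and mask by 0.46 ± 0.17, while qkr58E-1 fell by 0.76 ± 0.29. The call of qkr58E-2 held in 22 of 22 alternatives, but that of qkr54B in 11, of mask in 8 and of qkr58E-1 in 13. These 3 qkr genes encode relatives of the quaking family of RNA-binding proteins. Another listed qkr gene, qkr58E-3, had −0.40 ± 0.23 over wild-type IgG (edgeR adjusted p = 0.185). In the mutant qkr58E-2 alone passed (0.86 ± 0.19), 1 of 14 where 10.8% of all genes were called higher, and the median was 0.18. It too lost the call with numbers 1, 5 and 7 alone (0.65, edgeR adjusted p = 0.227). The 3 next members by p, which did not pass, had log2 fold changes of 0.38 for ps, the fly Pasilla, 0.41 for mub and 0.18 for Dp1, the fly vigilin. Over input qkr58E-2 did not pass, at −0.16 ± 0.16 (wild type, edgeR adjusted p = 0.429) and 0.010 ± 0.17 (mutant, adjusted p = 0.972). Its IgG minus input values were −1.35 ± 0.18 and −0.85 ± 0.19. Of the 14, 3 rose and 2 fell over wild-type input, and 5 rose and 1 fell over mutant input. Of all genes 23.2% and 21.7% were called higher there.

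Per length of exon, most of these mRNAs were more abundant than Fmr1 in wild-type inputs. The partners had a median of 36.5 RPKM, from 2.22 RPKM for Dcr-1 to 211 RPKM for RpL11, and 16 of 20 were above the 14.5 RPKM of Fmr1. The KH domain genes had a median of 30.5 RPKM, from 1.60 RPKM for PNPase, an RNA-degrading exonuclease, to 176 RPKM for ps, and 9 of 14 were above Fmr1.

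**Figure D4:**
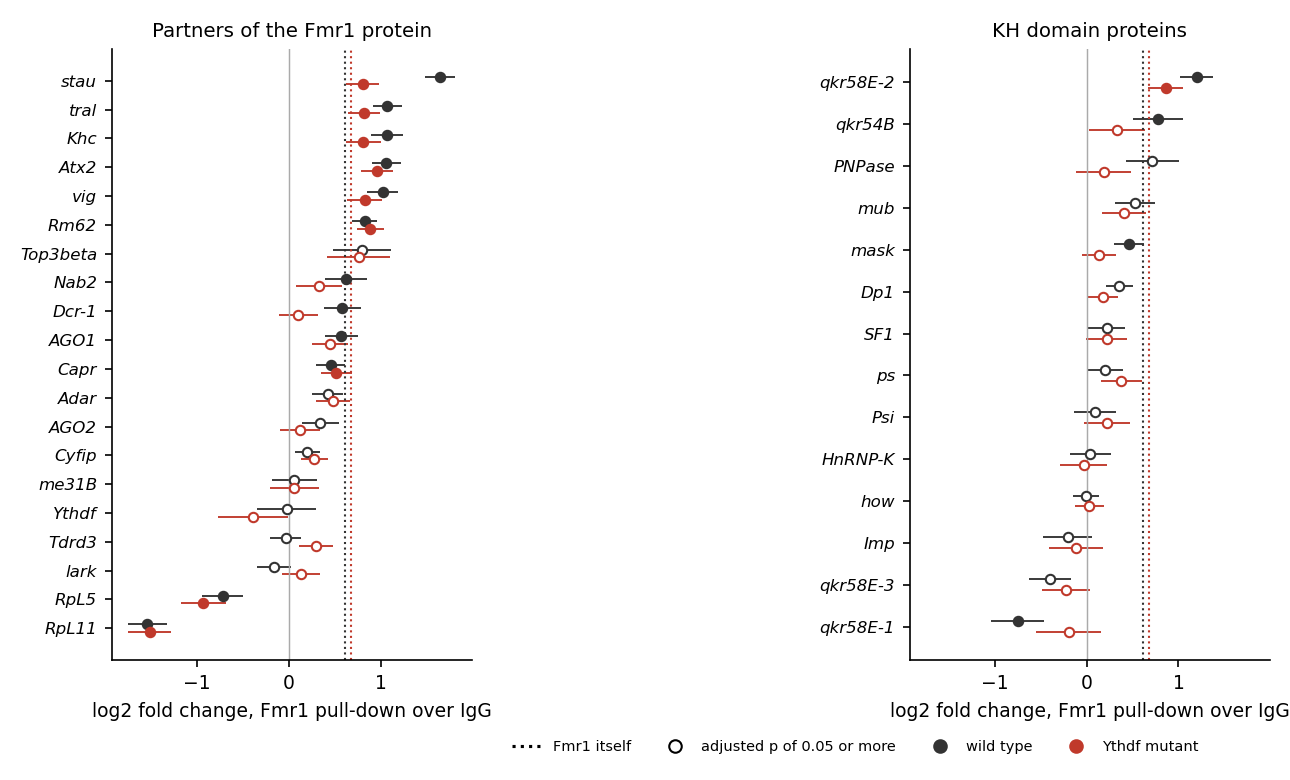
Log2 fold change in the Fmr1 pull-down over IgG, with its SE, for Fmr1 mRNA, the mRNAs of 20 Fmr1 partners and those of 14 other KH domain proteins, in the wild type and the mutant. Filled points passed an adjusted p of 0.05, and a dotted line marks Fmr1 in each genotype, above which lie 8 partners in the wild type and 7 in the mutant.

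Of the neighbouring genes, the noncoding lncRNA:CR43459 fell over IgG in both genotypes, with log2 fold changes of −2.31 ± 0.34 and −1.87 ± 0.38. CAH7 had 0.26 ± 0.20 in the wild type (adjusted p = 0.339) and 0.20 in the mutant, neither of which passed.

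The genes whose level was most like that of Fmr1 over the 27 libraries were ranked by Pearson's r of log2 CPM, among the 5293 genes whose mean log2 CPM reached 4. They were Dek (0.914), CG43902 (0.896), crp (0.875), stx (0.870), larp (0.869) and Sf3b2 (0.867). Dek encodes a chromatin protein, crp a helix-loop-helix transcription factor, larp an RNA-binding protein and Sf3b2 a splicing factor. With group means removed, r was 0.471, 0.486, 0.522, 0.324, 0.241 and 0.0996, so the likeness lay mostly between the 6 groups. Dek, for example, stood at 58.8 CPM in wild-type inputs, 155 CPM in wild-type Fmr1 pull-downs and 216 CPM in mutant ones, against 51.7 and 84.5 CPM in the IgG libraries. The libraries share lysates, so these correlations are descriptions of 27 points that are not independent.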

How the data were processed

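The data were raw counts per gene in 27 libraries, as deposited by the authors. Per the submitters' processing notes, the tools used were bcl2fastq 2.20, Trim Galore and the aligner STAR. Per the labels' protocols, libraries were strand-specific and depleted of ribosomal RNA, and the second read held a molecular identifier. Which genome build, counting strand and treatment of identifiers were used is not given in the sources used here. The 5 special entries for unassigned reads, 23.8% to 74.7% of a library, were left out. No pair of libraries was identical (0 pairs). Names, lengths and positions came from Ensembl release 115 (BDGP6.54), with 17710 of 17807 identifiers matched.

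With edgeR 4.0.16 in R 4.3.3, filterByExpr (minimum count 10, minimum total 15) removed 6338 genes and left 11469. After TMM scaling, all libraries entered 1 quasi-likelihood fit (robust, 6 groups), whose biological coefficient of variation was 0.281. P-values were adjusted with the Benjamini-Hochberg method per comparison, and those under 0.05 passed. SEs are the log2 fold change divided by the root of the F statistic, and edgeR bounds its p-values by Poisson noise. Log2 CPM used a prior count of 2. Permutation tests enumerated all splits (scipy 1.17.1). Replicates are biological per the labels. The model was also run on simulated counts, drawn independently per library from its own fitted means and spread. That run held no shared lysates, so it cannot test the effect of the pairing.

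Same-numbered libraries deviated together (every r above 0.1) for the Fmr1 pull-down and input (0.175 to 0.473 in the wild type, 0.138 to 0.495 in the mutant), for mutant Fmr1 and IgG (0.181 to 0.318), for mutant IgG and input (0.14 to 0.268) and for the Fmr1 pull-downs of both genotypes (0.311 to 0.639). This did not hold for wild-type Fmr1 and IgG (−0.0128 to 0.326), wild-type IgG and input (−0.0476 to 0.154), inputs (0.0214 to 0.354) or IgG libraries (0.0496 to 0.194) of both genotypes. Libraries of unlike number reached r of 0.0699 (wild-type Fmr1 and input), 0.293 (mutant Fmr1 and input), 0.292 (mutant Fmr1 and IgG), 0.15 (mutant IgG and input) and 0.506 (Fmr1 pull-downs of both genotypes). In these, the own number gave the highest r for 5 of 5, 3 of 4, 3 of 4, 4 of 4 and 3 of 4 libraries. For wild-type Fmr1 and IgG it did so for 1 of 5. The protocol divides 1 lysate into input and pull-downs, and the ratios by lysate rest on that and on the shared number.

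Fmr1, the comparison genes and the lists were chosen with earlier results of these data known. Named genes were the neighbours of Fmr1, the 6 most correlated genes, the 3 highest and 3 lowest genes of like level over wild-type IgG, Ythdf, and from each list the 4 members of lowest p over IgG in either genotype. Further list members were named after their values were seen. Alternatives were other scalings, filters, DESeq2 1.42.0, limma voom 3.58.1, subsets of libraries and replicate blocks.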

Additional observations from a re-analysis of the deposited data

How the results depend on the processing

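Of 366 recomputed values of the main comparisons, 316 kept direction and call, 31 lost the call and 19 changed sign. For the other named genes these numbers were 544, 40 and 8, with 2 gaining a call. In edgeR the rise of Fmr1 mRNA over IgG and over input, in both genotypes, kept its call when any 1 library was left out. In the wild type over IgG it ran from 0.55 to 0.63 on the log2 scale under those omissions, and in the mutant from 0.50 to 0.76. With replicate numbers 1, 5 and 7 alone the calls were lost, at 0.48 (wild type) and 0.62 (mutant) over IgG and 0.25 and 0.53 over input, and the mutant difference of IgG and input turned to −0.088. Numbers 2 and 3 alone, with fewer libraries, kept all 4 calls, and the cause was not tested. In the fit to the compared groups alone the mutant value over IgG was 0.56, and with library size alone, an alternative chosen after seeing the data, the wild-type value over input was 0.29; the cause of either loss was not tested. The edgeR fits with a replicate block changed no call of Fmr1 mRNA (0.60 and 0.66 over IgG, wild type and mutant).

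Other values changed sign without a call in either fit, and the cause was not tested. The input difference of mutant and wild type was 0.00094 with voom, 0.13 with library size alone and 0.19 with numbers 2 and 3 alone, and −0.13 to 0.089 with 1 library left out. Numbers 2 and 3 alone gave 0.070 for wild-type IgG over input, and the interaction over IgG ran from −0.014 to 0.13 with 1 library left out and from 0.057 to 0.16 under the other alternatives. For Ythdf over IgG the wild-type value was 0.013 with no filter, 0.33 with numbers 2 and 3 alone and −0.23 to 0.29 with 1 library left out, and the mutant value of −0.39 became 0.23 with numbers 2 and 3. Dp1 in the mutant ran from −0.011 to 0.27.

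Relative to mRNAs of like level, matching on RPKM gave 0.28 over wild-type IgG, 0.26 over wild-type input and 0.27 between the Fmr1 pull-downs, none of which passed, and −0.0076 between inputs. A window of 0.5 gave 0.012 for wild-type IgG over input. Among other genes, FoxP lost its call over wild-type IgG with numbers 1, 5 and 7 alone (1.16). With 1 library left out, the difference relative to mRNAs of like level was 0.28 to 0.32 over wild-type IgG, 0.23 to 0.35 over wild-type input and 0.26 to 0.38 between the Fmr1 pull-downs. The values for wild-type IgG over input (−0.076 to 0.050) and between inputs (−0.041 to 0.091) lay on either side of 0. As a replicate block, sign-flip tests over same-numbered libraries gave 0.30 (wild type over IgG), 0.30 (wild type over input) and 0.34 (between the Fmr1 pull-downs), and 5 or 4 pairs cannot reach the threshold. For the pull-downs of both genotypes the edgeR adjusted p ran from 0.056 to 0.692 over the alternatives. The IgG depth limits what could be seen between genotypes.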
